A study of Mus musculus with 12 samples.

Results

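The MHC class II presentation genes were 8 genes chosen by symbol from the expression table (H2-Aa, H2-Ab1, H2-Eb1, H2-DMa, H2-DMb1, H2-DMb2, Cd74 and Ciita), out of 55335 genes in all. Each symbol was found under 1 gene identifier. Gene expression was measured by RNA sequencing in 12 libraries of mouse bone marrow–derived macrophages (BMDMs), cells obtained by culturing marrow precursors in macrophage colony-stimulating factor (M-CSF). The libraries formed 4 groups of 3. They were wild-type control BMDMs, wild-type BMDMs costimulated with lipopolysaccharide (LPS, a bacterial ligand of Toll-like receptor 4) and then adenosine triphosphate (ATP), Nlrp3-/- control BMDMs and Nlrp3-/- BMDMs costimulated in the same way. Nlrp3 encodes the sensor protein of an inflammasome, the complex that activates caspase-1, and LPS followed by ATP is the usual way to activate it. The sample labels give 4 hours of LPS and then 30 minutes of ATP, whereas the culture protocol gives 200 ng/ml LPS for 12 hours and 3 mM ATP for 2 hours, and which schedule these libraries had was not settled here. The marrow came from mice aged 8 weeks and was cultured for 7 days in M-CSF. The wild-type mice were C57BL/6 animals from a laboratory animal center and the Nlrp3-/- mice came from another supplier, so the genotypes were not described as littermates. The labels do not say whether the 3 libraries of a group came from separate mice or cultures, so p-values measure the spread between these libraries, which may be technical.

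MHC class II molecules carry peptides from proteins that a cell has taken up and display them to CD4+ T cells. An alpha chain (H2-Aa) and a beta chain (H2-Ab1) form the I-A molecule, and H2-Eb1 encodes the beta chain of the I-E molecule. The invariant chain, encoded by Cd74, holds the new molecule and fills its groove until proteases of the endosome cut it down to a short fragment. H2-DM, made of H2-DMa with H2-DMb1 or H2-DMb2, then exchanges that fragment for other peptides. Ciita is the transactivator that docks on proteins bound to the class II promoters and is induced by interferon-gamma. Macrophages are known to carry little class II until interferon-gamma reaches them.

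The proximal promoters carry shared sequence elements. These are the X box, bound by the RFX complex, a cyclic AMP response element (CRE) beside it and the Y box, bound by NF-Y. They are shown here for the 4 members with a match to the strings given below. All 4 passed the adjusted p as lower in costimulated wild-type BMDMs. So did H2-DMa, which had no match, and 53.1% of all tested genes. The stretches are the 130 bases just upstream of the RefSeq transcription start in build GRCm38.p6, 5′ to 3′ on the gene's own strand, with letters matching the searched motifs in capitals.
H2-Eb1, chr17:34305737-34305866, + strand: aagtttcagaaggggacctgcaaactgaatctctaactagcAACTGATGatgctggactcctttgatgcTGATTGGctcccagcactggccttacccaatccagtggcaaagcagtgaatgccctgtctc
H2-DMb1, chr17:34153061-34153190, + strand: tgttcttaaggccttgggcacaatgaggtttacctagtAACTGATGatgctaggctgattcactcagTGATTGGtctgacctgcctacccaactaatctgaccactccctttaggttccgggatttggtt
H2-DMb2, chr17:34145119-34145248, + strand: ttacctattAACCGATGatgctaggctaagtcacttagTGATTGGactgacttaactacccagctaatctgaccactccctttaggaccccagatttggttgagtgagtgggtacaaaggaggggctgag
H2-Aa, chr17:34287824-34287953, - strand: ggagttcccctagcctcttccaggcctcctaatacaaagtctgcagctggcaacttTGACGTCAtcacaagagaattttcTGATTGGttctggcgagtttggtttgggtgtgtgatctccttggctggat
The 3 strings, given here by their letters, were searched on both strands of 250 bases upstream of each start, X as AACNGATG, the CRE as TGACGTCA and Y as TGATTGG, and these letters were chosen after the sequences had been seen. None of the matches overlapped each other. X and Y were both found upstream of H2-Eb1, H2-DMb1 and H2-DMb2, in forward orientation, with 28, 29 and 29 bases from the first base of X to the first base of Y. Upstream of H2-Aa the CRE began 74 bases and Y began 50 bases before the start. Neither of the 2 listed H2-DMa windows held any of the strings. Among all 32851 windows of that length, 1.98% held X, 1.55% held the CRE, 7.23% held Y and 0.146% held both X and Y. H2-Ab1, Cd74 and Ciita were not among the promoter sequences used here.

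Of the members, 6 lie in the MHC region of chromosome 17. In build GRCm38 these are H2-DMa (34119541 to 34139101), H2-DMb2 (34143307 to 34151555), H2-DMb1 (34153072 to 34160230), H2-Ab1 (34257689 to 34269419), H2-Aa (34282744 to 34287823) and H2-Eb1 (34305867 to 34316674), of which H2-Aa alone is on the minus strand. Ciita lies on chromosome 16 (10480059 to 10528418) and Cd74 on chromosome 18. All 8 are annotated as protein-coding, and the values are given per gene, so no exon or untranslated region is resolved. H2-DMb1 and H2-DMb2 are near copies, with 95.7% identity over 1081 aligned bases of the transcript, so reads may have been split between them and the value of either is uncertain. H2-DMa shares 360 exon bases with Brd2 on the opposite strand, and Brd2 rose from 19.4 to 34.4 FPKM in wild-type BMDMs while H2-DMa fell. Ciita shares 329 exon bases with Dexi, also on the opposite strand. Dexi averaged 1.77 FPKM in control and 1.52 in costimulated wild-type BMDMs, and 1.97 and 2.00 in Nlrp3-/- BMDMs. Whether the reads were counted by strand is not given in the sources used here.

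Nlrp3 checked the genotype labels. It was listed at 0 in all 6 Nlrp3-/- libraries and averaged 9.68 FPKM in wild-type control and 32.9 FPKM in costimulated wild-type BMDMs. FPKM are sequenced fragments scaled to transcript length and to the library's mapped total, so they can be compared between genes. The libraries summed to between 283278 and 299393 FPKM, with relative depths, estimated from the spacing of low values, between 1.0 and 1.22 and an unknown number of reads. Libraries of a group correlated at 0.99 to 0.993 and libraries of different groups at 0.815 to 0.964 over the tested genes, and none stood apart from its group. The 6 macrophage markers, with a further entry of Itgam included, summed to 2144–2207 FPKM in wild-type control and 1798–1834 in costimulated wild-type libraries. In Nlrp3-/- libraries the sums were 1424–1444 in control and 1368–1387 after costimulation. These markers were thus present in every group, and their sum was lower in Nlrp3-/- libraries. By the adjusted p alone 4 of the 6 were lower in Nlrp3-/- BMDMs in each state, where 14.5% and 12.6% of all genes were lower. Adgre1, Cd68 and Fcgr1 were lower in both states, Csf1r in control alone and Mertk after costimulation alone. Of the 6 markers, Fcgr1, an Fc receptor, was the 1 called with costimulation (1.97 in wild-type and 1.66 in Nlrp3-/- BMDMs). The genotypes also differed in Xist, which averaged 33.4 FPKM or more in Nlrp3-/- groups and 0.028 FPKM or less in wild-type groups, in the Y-linked genes, listed at 0 in the Nlrp3-/- libraries, and in Nnt, a gene that differs among C57BL/6 substrains, so sex, substrain and Nlrp3 genotype cannot be told apart.

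Class II transcripts were detected at low to moderate levels, and Cd74 led them in every group (the plot of FPKM in each library). In wild-type control BMDMs Cd74 averaged 45.5 FPKM, followed by H2-DMb1 (18.1), H2-Ab1 (8.13), H2-DMa (7.99), H2-Aa (4.63), H2-Eb1 (3.86), H2-DMb2 (1.76) and Ciita (0.359). The libraries of H2-Ab1 and H2-DMa overlapped there, as did those of H2-Aa and H2-Eb1, and the other neighbours in that order did not. In costimulated wild-type BMDMs H2-Ab1 moved up to the place behind Cd74, and the low end was H2-Aa, H2-Eb1, H2-DMb2 and Ciita, with overlap between H2-Aa and H2-Eb1. In costimulated Nlrp3-/- BMDMs no neighbours in the order overlapped. The 8 genes together summed to 89.9–90.6 FPKM in wild-type control libraries, 74.7–78.5 after costimulation, 110.6–114.6 in Nlrp3-/- control libraries and 127–135 after costimulation. For scale, the 13 MHC class I genes of the comparison list summed to 4494–4562 FPKM in wild-type control libraries.

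**Figure D1:**
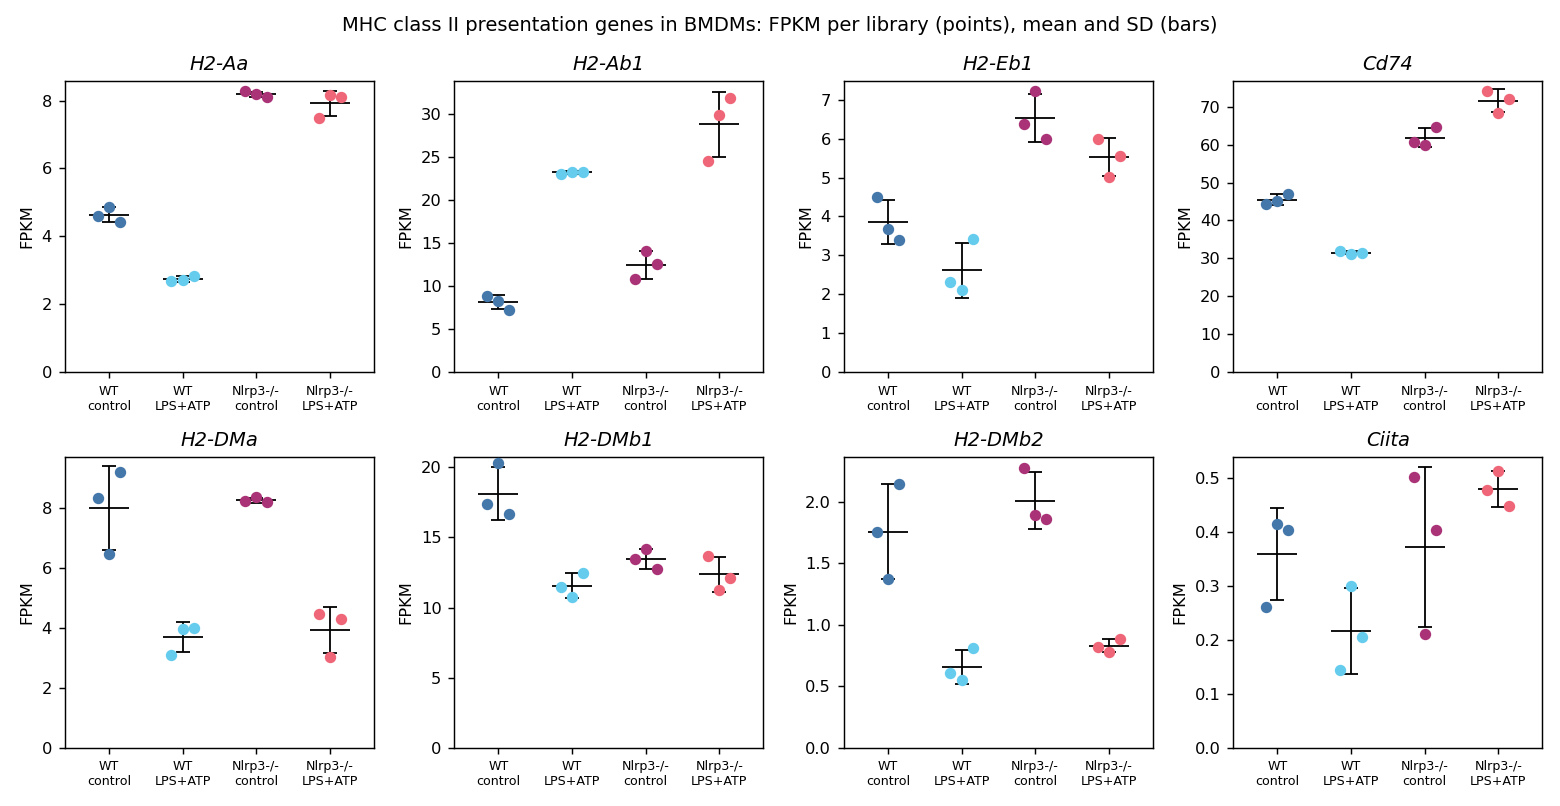
FPKM of each of the 8 MHC class II presentation genes (vertical axis, from 0) in the 12 libraries, by group. Points are libraries and bars are the mean with 1 SD (n = 3). H2-Ab1 is higher in all 6 costimulated libraries than in the 6 control libraries, and H2-DMa and H2-DMb2 are lower in them. H2-Aa, H2-Eb1 and Cd74 are higher in all 6 Nlrp3-/- libraries than in the 6 wild-type libraries.

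H2-Ab1, the I-A beta chain, rose with costimulation in both genotypes while its partner chain did not. It was at 8.86, 8.28 and 7.25 FPKM in the wild-type control libraries and at 23.0, 23.3 and 23.3 in the costimulated ones. Its Nlrp3-/- values were at 10.8, 14.1 and 12.6 FPKM in control libraries and at 24.6, 29.9 and 31.8 after costimulation. Control and costimulated libraries did not overlap in either genotype, and the ratio of the means was 2.85 in wild-type and 2.31 in Nlrp3-/- BMDMs. In the limma fit of log2(FPKM + 1), the difference was 1.41 (SE 0.106, adjusted p = 2.44e-07) in wild-type and 1.14 (SE 0.106, adjusted p = 1.86e-06) in Nlrp3-/- BMDMs. The difference between these changes was -0.27 with a 95% confidence interval of -0.60 to 0.064 (adjusted p = 0.224).

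H2-Aa, the I-A alpha chain, fell in wild-type BMDMs, and its change in Nlrp3-/- BMDMs did not pass the test. Wild-type libraries had 4.61, 4.86 and 4.43 FPKM in control and 2.69, 2.71 and 2.84 FPKM after costimulation, and these groups did not overlap. Nlrp3-/- libraries had 8.27, 8.19 and 8.12 FPKM in control and 7.48, 8.17 and 8.10 FPKM after costimulation, and these overlapped. The change on the log2 scale was -0.59 (SE 0.046, adjusted p = 3.62e-07) in wild-type BMDMs and -0.045 (95% confidence interval -0.15 to 0.057, adjusted p = 0.398) in Nlrp3-/- BMDMs. With median-ratio scaling, which shifted the median of all genes in this comparison by 0.238, the Nlrp3-/- value was 0.21 (adjusted p = 0.00221). The changes differed between the genotypes by 0.54 (SE 0.065, adjusted p = 0.000117).

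H2-Eb1, the I-E beta chain, was at 4.49, 3.68 and 3.40 FPKM in wild-type control libraries and at 2.32, 2.10 and 3.43 after costimulation. The groups touched, since costimulated replicate 3 lay just above control replicate 3, and the log2 difference was -0.44 (SE 0.131, adjusted p = 0.00995). With median-ratio scaling it was -0.20 and did not pass (adjusted p = 0.205). In Nlrp3-/- BMDMs the libraries were at 6.39, 7.22 and 6.0 FPKM in control and at 5.99, 5.02 and 5.56 after costimulation, a difference of -0.21 (95% confidence interval -0.50 to 0.081, adjusted p = 0.172). H2-Ea, the alpha chain of I-E, was not in the table, and its pseudogene row H2-Ea-ps was listed at 0 in all 12 libraries. A functional H2-Ea gene is lacking in mice of the C57BL/6 background.

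Cd74, which encodes the invariant chain, moved in opposite directions in the genotypes. It fell from 44.3, 45.3 and 47.1 FPKM to 31.9, 31.1 and 31.5 FPKM in wild-type BMDMs. It rose from 60.7, 60.0 and 64.7 FPKM to 74.3, 68.3 and 72.2 FPKM in Nlrp3-/- BMDMs. Neither pair of groups overlapped, and the spread within a group was small beside the shift in wild-type BMDMs. The log2 differences were -0.52 (SE 0.040, adjusted p = 3.45e-07) and 0.21 (SE 0.040, adjusted p = 0.00068), and they differed by 0.73 (SE 0.057, adjusted p = 5.73e-06). The direction in each genotype held in all alternative scalings, with values between -0.54 and -0.21 in wild-type and between 0.18 and 0.49 in Nlrp3-/- BMDMs over all settings.

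The genes of H2-DM, the peptide exchanger, were lower or not higher after costimulation. H2-DMa was at 8.32, 6.46 and 9.19 FPKM in wild-type control libraries and at 3.10, 3.95 and 4.00 FPKM after costimulation. Its Nlrp3-/- libraries were at 8.21, 8.35 and 8.18 FPKM in control and at 4.45, 3.03 and 4.30 FPKM after costimulation. The change was -0.93 (SE 0.135, adjusted p = 6.67e-05) in wild-type and -0.92 (SE 0.135, adjusted p = 8.40e-05) in Nlrp3-/- BMDMs, and control and costimulated libraries did not overlap in either genotype. The difference between the changes was 0.012 with a 95% confidence interval of -0.41 to 0.44 (adjusted p = 0.972), so a genotype effect of moderate size was not resolved.

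H2-DMb2, a beta chain of H2-DM expressed at a low level, gave a similar pair of values. It was at 1.75, 1.37 and 2.14 FPKM in wild-type control libraries and at 0.604, 0.547 and 0.811 FPKM after costimulation. In Nlrp3-/- BMDMs it was at 2.28, 1.89 and 1.86 FPKM in control and at 0.819, 0.781 and 0.888 FPKM after costimulation. The groups were apart in both genotypes, with changes of -0.73 (adjusted p = 5.00e-05) and -0.72 (adjusted p = 6.71e-05). At this level the pseudocount of 1 holds the change down, and the means fell by a ratio of 2.69 in wild-type and 2.42 in Nlrp3-/- BMDMs.

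H2-DMb1, the more abundant beta chain, fell in wild-type BMDMs. The libraries were at 17.4, 20.3 and 16.7 FPKM in control and at 11.4, 10.7 and 12.5 FPKM after costimulation, a change of -0.60 (SE 0.086, adjusted p = 5.62e-05) with no overlap. The Nlrp3-/- libraries were at 13.4, 14.2 and 12.8 FPKM in control and at 13.7, 11.3 and 12.1 FPKM after costimulation, which overlapped (-0.12, 95% confidence interval -0.31 to 0.072, adjusted p = 0.235). The changes differed between the genotypes by 0.49 (SE 0.121, adjusted p = 0.0121). This difference came with a lower control level in Nlrp3-/- BMDMs, and the costimulated groups overlapped.

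Ciita, the class II transactivator, was close to the limit of the measurement in all groups. It was at 0.261, 0.413 and 0.403 FPKM in wild-type control, 0.143, 0.30 and 0.204 in costimulated wild-type, 0.501, 0.211 and 0.404 in Nlrp3-/- control and 0.477, 0.513 and 0.447 in costimulated Nlrp3-/- libraries. It was the member that did not reach 1 FPKM in any library and so was left out of the main test. The costimulated Nlrp3-/- libraries were all above the costimulated wild-type ones, and also above the wild-type control ones, and every other pair of groups overlapped. Without the filter, the difference between the costimulated groups was 0.28 (adjusted p = 0.0329). Dexi, which overlaps Ciita, averaged 1.52 FPKM in costimulated wild-type and 2.00 in costimulated Nlrp3-/- libraries, and its part in this difference was not tested.

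In all, 7 of the 8 members passed the filter of at least 1 FPKM in at least 3 libraries and were tested among 12622 genes. A gene was called with an adjusted p under 0.05 and a difference of at least 1 on the log2 scale. In wild-type BMDMs 1 of the 7 was called higher with costimulation, H2-Ab1, and 0 lower, where 19.4% of all tested genes were called (8.25% higher and 11.2% lower). In Nlrp3-/- BMDMs H2-Ab1 was again the 1 member called, and 14.8% of tested genes were (6.64% higher and 8.21% lower). Either count of 1 in 7 is 14.3%, near these backgrounds. By the adjusted p alone, 1 member was higher and 6 were lower in wild-type BMDMs, where 76.4% of all genes passed (23.3% higher and 53.1% lower). For Nlrp3-/- BMDMs 2 were higher and 2 lower by this measure, where 74.3% of all genes passed (20.6% higher and 53.8% lower). The median over the members was -0.59 in wild-type and -0.12 in Nlrp3-/- BMDMs, beside -0.26 and -0.24 over all tested genes. The lower calls were sensitive to how low values were handled. H2-DMa and H2-DMb2 were also called lower in both genotypes with a pseudocount of 0.1 (3 called). That setting called 29.3% of all genes in wild-type and 22.6% in Nlrp3-/- BMDMs. Leaving out wild-type control replicate 2 or costimulated Nlrp3-/- replicate 1 brought the count from 1 to 2.

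**Figure D2:**
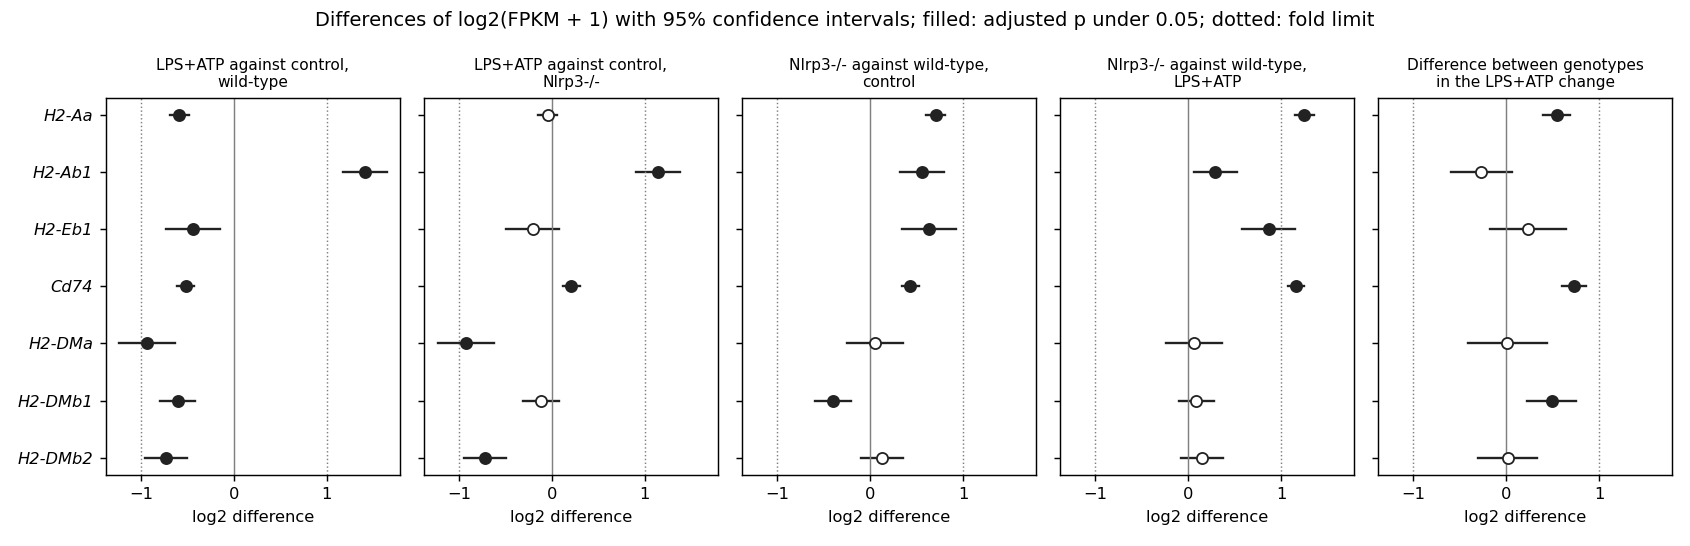
Differences of log2(FPKM + 1) for the 7 tested class II genes in the 4 pairwise comparisons and, at right, the difference between the genotypes in the change with costimulation. Points are fitted differences, lines are 95% confidence intervals, filled points have an adjusted p under 0.05 and dotted lines mark a log2 difference of 1. H2-Ab1 is past the dotted line in both comparisons with costimulation, and H2-Aa and Cd74 are past it for genotype after costimulation.

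In control BMDMs, the classical chains and Cd74 were higher in Nlrp3-/- than in wild-type libraries. The log2 difference was 0.71 for H2-Aa (SE 0.046, adjusted p = 2.10e-07), 0.56 for H2-Ab1 (adjusted p = 0.00113), 0.64 for H2-Eb1 (adjusted p = 0.00192) and 0.43 for Cd74 (adjusted p = 4.27e-06). The libraries given above did not overlap between the genotypes for any of them. How many of all tested genes also had no overlap was not counted, so this is not a trait of these members. H2-DMb1 was lower by the same test (-0.40, adjusted p = 0.00259). H2-DMa (0.053, 95% confidence interval -0.25 to 0.35) and H2-DMb2 (0.13, 95% confidence interval -0.093 to 0.36) did not pass. None of the 7 members reached the fold limit, where 6.71% of all genes were called (6.02% higher and 0.689% lower). By the adjusted p alone 4 members were higher and 1 lower, where 47.8% of all genes passed (33.3% higher and 14.5% lower), and the members' median was 0.43 beside 0.088 over all genes. The pairwise comparisons share groups of libraries, so they are not independent of each other.

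After costimulation, H2-Aa and Cd74 were called higher in Nlrp3-/- BMDMs. H2-Aa differed by 1.25 (SE 0.046, adjusted p = 3.06e-09), a ratio of means of 2.88, and Cd74 by 1.16 (SE 0.040, adjusted p = 1.93e-09), a ratio of 2.27. H2-Eb1 differed by 0.87 (SE 0.131, adjusted p = 0.000216) and its means by a ratio of 2.11. These are 2 of 7 members called (28.6%), where 5.05% of all tested genes were called (4.48% higher and 0.57% lower). With median-ratio scaling Cd74 came to 0.99, just under the fold limit, which left 1 member called (beside 4.57% of all genes). With a pseudocount of 0.1 H2-Eb1 came to 1.08, which made 3 (beside 11.1% of all genes). H2-Ab1 differed by 0.29 (adjusted p = 0.0408), and this value did not pass with median-ratio scaling (adjusted p = 0.377), with no filter (adjusted p = 0.0946), without any single costimulated wild-type library (adjusted p from 0.0814 to 0.0893) or without costimulated Nlrp3-/- replicate 2 (adjusted p = 0.114) or replicate 3 (adjusted p = 0.147). The 3 genes of H2-DM did not pass, with values between 0.066 and 0.15. By the adjusted p alone 4 members were higher and 0 lower, where 48.5% of all genes passed (35.9% higher and 12.6% lower). The members' median was 0.29 beside 0.11 over all genes. In the difference between the genotypes in the change with costimulation, 0 of the 7 members were called, where 2.15% of all genes were (0.721% higher and 1.43% lower). By the adjusted p alone 3 members, H2-Aa, H2-DMb1 and Cd74, were higher and 0 lower, where 27.7% of all genes passed (14.7% higher and 13% lower).

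Markers of other cells also differed between the genotypes. The 5 fibroblast markers summed to 157–161 FPKM in wild-type control and 1164–1180 in Nlrp3-/- control libraries, and to 180–183 and 890–905 after costimulation. All 5 were called higher in Nlrp3-/- control libraries, from Col1a1, a chain of collagen I, at 3.18 on the log2 scale through Col1a2 (2.84), Col3a1 (2.48) and Dcn (1.27) to Pdgfra (1.25). Of all tested genes, 6.02% were called higher in this comparison and 4.48% after costimulation. After costimulation 4 of the fibroblast markers were called higher, and Dcn (0.59) was not. The 6 neutrophil and precursor markers summed to 229–261 and 1366–1414 FPKM in control, and to 91.0–107 and 415–442 after costimulation. In control libraries 5 of them were called higher in Nlrp3-/- BMDMs, with Mpo at 4.14, Elane at 3.70, S100a8 and S100a9 at 2.43 and Camp at 1.53. After costimulation 3 were called higher, and Mpo (0.55) and Elane (0.98) were not. The 7 B cell markers summed to 8.08–8.69 FPKM in wild-type control, 5.39–5.83 in costimulated wild-type, 16.1–17.4 in Nlrp3-/- control and 9.21–9.80 in costimulated Nlrp3-/- libraries, with 4 of the 7 at 1 FPKM or more in any library and Ebf1 called higher in Nlrp3-/- control libraries (1.16). By the adjusted p alone the 3 tested B cell markers, Ebf1, Cd79b and Cd22, were higher in Nlrp3-/- BMDMs in both states. Their differences were 1.16, 0.98 and 0.52 in control and 0.80, 0.64 and 0.33 after costimulation. Ms4a1, a B cell surface gene, stayed under 1 FPKM throughout, with means of 0.037 in wild-type and 0.366 in Nlrp3-/- control libraries. The 8 dendritic cell markers summed to 7.45–8.42, 5.66–7.44, 10.1–11.8 and 8.49–9.16 FPKM in the same order, with 2 of the 8, Itgax and Ccr7, at 1 FPKM or more in any library. Of the dendritic cell markers Cd209a and Siglech were listed at 0 in all 6 costimulated libraries, and Flt3, Zbtb46, Clec9a and Xcr1 were under 1 FPKM. Ccr7 passed the adjusted p as higher in Nlrp3-/- BMDMs in control (0.88) and after costimulation (0.75), and Itgax in control alone (0.19). By this measure 33.3% and 35.9% of all genes were higher in these states. With costimulation Ccr7 was called higher in wild-type BMDMs (1.07). The 7 T and NK cell markers summed to at most 3.31 FPKM, and of them Nkg7 was called higher in Nlrp3-/- control libraries (1.43). B cells and dendritic cells carry class II themselves, and the part of these cells in the genotype differences was not tested. In bulk samples, fewer cells of a type and less RNA per cell cannot be told apart.

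Within the I-A molecule, the balance of the transcripts of the chains shifted with costimulation. The ratio of H2-Aa to H2-Ab1 was 0.520, 0.587 and 0.610 in wild-type control libraries and 0.117, 0.116 and 0.122 after costimulation. In Nlrp3-/- BMDMs it was 0.767, 0.582 and 0.645 in control and 0.305, 0.273 and 0.254 after costimulation. The costimulated libraries were all below the controls of their genotype. Over both genotypes the log2 ratio was lower by 1.76 with costimulation (exact permutation test within genotype, two-sided, p = 0.005, adjusted p = 0.0133 over 8 tests, n = 3 per group), where 0.005 is the smallest p the 400 permutations allow. It was higher in Nlrp3-/- than in wild-type BMDMs by 0.72 (exact permutation p = 0.015, adjusted p = 0.02). The control libraries of the genotypes overlapped in this ratio (means 0.573 and 0.665), and the costimulated ones did not (means 0.119 and 0.277). The ratio of Cd74 to H2-Ab1 fell from a mean of 5.65 ± 0.764 (SD, n = 3) to 1.36 ± 0.0265 in wild-type and from 5.01 ± 0.689 to 2.53 ± 0.433 in Nlrp3-/- BMDMs. Its log2 difference with costimulation was -1.52 (exact permutation p = 0.005, adjusted p = 0.0133), and its genotype difference of 0.35 did not pass (exact permutation p = 0.08, adjusted p = 0.0914).

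The chains of H2-DM also shifted against each other. The ratio of H2-DMa to H2-DMb1 was 0.449 ± 0.119 in wild-type control, 0.320 ± 0.0486 in costimulated wild-type, 0.614 ± 0.0266 in Nlrp3-/- control and 0.316 ± 0.0439 in costimulated Nlrp3-/- libraries (SD, n = 3 each). Costimulation lowered it by 0.71 on the log2 scale over both genotypes (exact permutation p = 0.015, adjusted p = 0.02). Control and costimulated libraries overlapped in wild-type (0.318–0.550 and 0.271–0.368) and did not in Nlrp3-/- BMDMs. For this ratio, the genotype difference of 0.24 did not pass (exact permutation p = 0.18). The ratio of H2-DMb2 to H2-DMb1 was 0.099 ± 0.0303, 0.0562 ± 0.00757, 0.15 ± 0.0185 and 0.0675 ± 0.00701 in the same order. It fell by 0.96 with costimulation (exact permutation p = 0.005, adjusted p = 0.0133) and was higher in Nlrp3-/- BMDMs by 0.45 (exact permutation p = 0.015, adjusted p = 0.02). Between the genotypes, costimulated libraries overlapped in this ratio (0.051–0.0649 in wild-type and 0.0597–0.0733 in Nlrp3-/- BMDMs), and control libraries did not. H2-DMb1 and H2-DMb2 are alternative beta chains and near copies, so split reads make this ratio uncertain. The genotype difference did not pass without Nlrp3-/- control replicate 1 (0.40, adjusted p = 0.06) or replicate 3 (0.46, adjusted p = 0.0533).

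**Figure D3:**
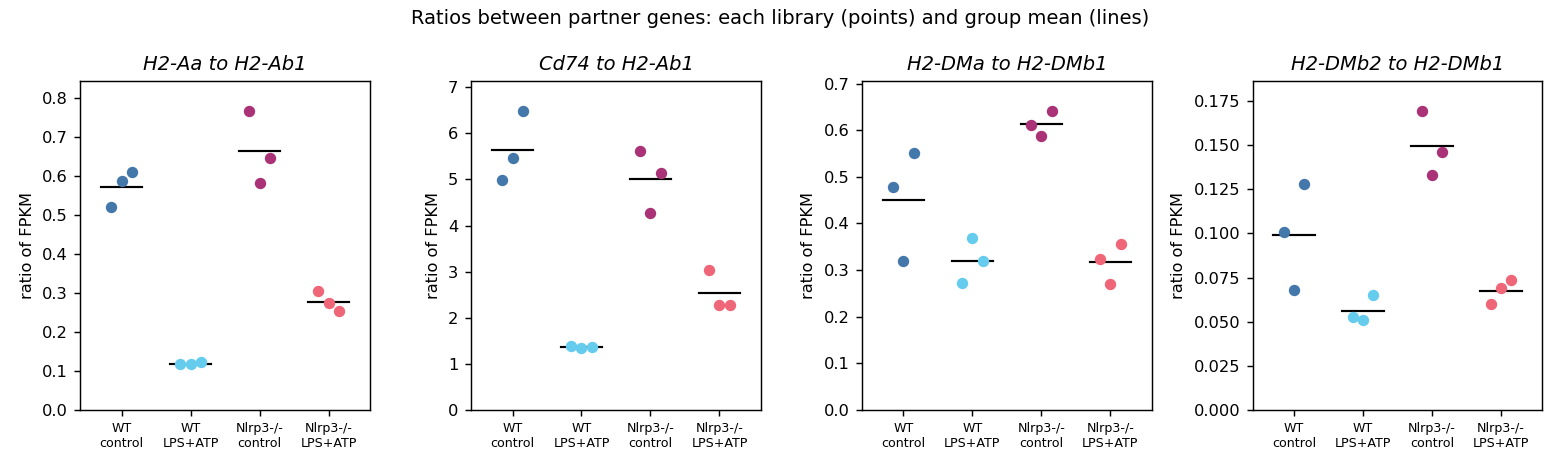
Ratios of FPKM between pairs of class II genes (vertical axes, from 0) in the 12 libraries. H2-DMb2 and H2-DMb1 are alternative beta chains of H2-DM and not partners. Points are libraries and lines are group means. The ratios of H2-Aa and of Cd74 to H2-Ab1 are lower in every costimulated library than in every control library of either genotype, and lowest in costimulated wild-type libraries, at 0.116–0.122 and 1.33–1.39.

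Across the 12 libraries the members fell into patterns that can be described by Pearson's r of log2(FPKM + 1), where the points share group means. H2-Aa was most like Cd74 (r = 0.971) and H2-Eb1 (r = 0.934). H2-DMa was most like H2-DMb2 (r = 0.958). H2-Ab1 stood apart from its partner chain (r = -0.00939 with H2-Aa) and ran opposite to H2-DMa (r = -0.877). Outside the members, the 5 tested genes most like the mean z-score of H2-Aa, H2-Ab1 and H2-Eb1 were Lrig1 (r = 0.985), Bysl (0.984), Kdelr2 (0.982), Rspo3 (0.981) and Hdgf (0.978), out of 12615 candidates. H2-Ab1 did not vary with H2-Aa (r = -0.00939) or H2-Eb1 (r = -0.0784), so this mean is not the pattern of any single chain. All 5 genes had higher means in both Nlrp3-/- groups than in both wild-type groups. The 5 most like Ciita were Mir222 (r = 0.86), Sil1 (0.855), Gm25184 (0.854), Gm45837 (0.851) and Zpr1 (0.842), among values of Ciita that never reached 1 FPKM.

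Of the other class II genes, H2-Oa and H2-Ob, which encode the inhibitor of H2-DM, and H2-Eb2 were in the table and stayed under 1 FPKM in every library, so none was tested. Of 7 genes encoding proteins that bind class II promoters, 0 were called in any of the 5 comparisons, where from 2.15% to 19.4% of all genes were. Rfx5, the DNA-binding subunit of the RFX complex, had the largest value that passed the adjusted p, with costimulation at 0.93 in wild-type (adjusted p = 5.64e-06) and 0.75 in Nlrp3-/- BMDMs (adjusted p = 3.92e-05). By the adjusted p alone, 1 of the 7 was higher and 1 lower with costimulation in wild-type BMDMs, and in Nlrp3-/- BMDMs 1 was higher and 3 were lower. These are 28.6% and 57.1% of the list, below the 76.4% and 74.3% of all genes that passed. Between the genotypes, 3 of the 7 were higher in Nlrp3-/- BMDMs and 0 lower in control, and 2 were higher and 0 lower after costimulation. The higher ones are 42.9% and 28.6% of the list, where 33.3% and 35.9% of all genes were higher.

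The interferon-gamma route induces Ciita. Of 17 tested genes on this list, 7 were called higher and 1 lower with costimulation in wild-type BMDMs. The Nlrp3-/- BMDMs had 7 called higher and 2 called lower. These are 47.1% and 52.9% of the list, where 19.4% and 14.8% of all tested genes were called, and the list's medians were 0.14 and 0.13. Ifng, the cytokine itself, went from a mean of 0 to 3.44 FPKM in wild-type and from 0.033 to 3.20 FPKM in Nlrp3-/- BMDMs. Socs1, an inhibitor of JAK kinases, rose by 4.21 and 3.77 on the log2 scale, Socs3, which restrains cytokine receptors, by 4.02 and 2.86, Jak2, a kinase of the interferon-gamma receptor, by 2.94 and 2.38, and Irf1, a factor that acts at the Ciita promoter, by 2.74 and 1.89. Ifngr1, the ligand-binding receptor chain, fell from 47.9 to 10.3 FPKM in wild-type and from 51.2 to 15.5 FPKM in Nlrp3-/- BMDMs. Il10ra, the interleukin-10 receptor, was the other gene called lower in Nlrp3-/- BMDMs (-1.11). Between the genotypes, 0 of these 17 genes were called in either state, where 6.71% and 5.05% of all genes were. In the difference between the changes Socs3 was the 1 gene called (-1.17, adjusted p = 6.15e-07), where 2.15% of all genes were.

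Among 11 genes of endosomal processing, 1 was called higher and 2 were called lower with costimulation in each genotype (27.3%, beside 19.4% and 14.8% of all genes). Lgmn, an asparagine endopeptidase, fell from 595 to 219 FPKM in wild-type and from 412 to 178 FPKM in Nlrp3-/- BMDMs. Ifi30, a thiol reductase of lysosomes, fell by 1.04 and 1.08 on the log2 scale. Sppl2a, a membrane protease that clears the last fragment of the invariant chain, rose from 21.2 to 60.0 and from 21.4 to 53.1 FPKM. Ctss, the cathepsin that removes most of the invariant chain, passed the adjusted p with a small fall of 0.30 and 0.31. Between the genotypes, 7 of the 11 passed the adjusted p as lower in Nlrp3-/- BMDMs in each state (63.6%, beside 14.5% and 12.6% of all genes). In each state 0 passed as higher, beside 33.3% and 35.9% of all genes, and 0 were called, beside 6.71% and 5.05%. The lower values are in the direction opposite to that of the classical chains.

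The genes of surface turnover split in the same way in both genotypes, with 1 of 7 tested called higher and 2 lower (42.9%, beside the same 19.4% and 14.8%). March1, a ubiquitin ligase that removes class II from the surface, rose from 9.61 to 31.5 FPKM in wild-type and from 7.77 to 27.8 FPKM in Nlrp3-/- BMDMs. Cd83, which opposes March1, fell from 19.2 to 3.95 FPKM in wild-type and from 9.17 to 2.40 FPKM in Nlrp3-/- BMDMs. Cd9, a tetraspanin, fell by 1.73 and 1.67 on the log2 scale. None of the 7 was called between the genotypes, where 6.71% of all genes were in control and 5.05% after costimulation.

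MHC class I, the pathway most like class II, was called higher more often with costimulation. Of its 13 tested genes, 7 were called higher in wild-type (53.8%, beside 8.25% of all genes) and 8 in Nlrp3-/- BMDMs (61.5%, beside 6.64%), and 0 lower, with medians of 1.39 and 1.73. Tap1 and Tap2, the peptide transporter, rose by 2.64 and 2.08 in wild-type BMDMs, Tapbp, which bridges it to class I, by 2.18, Psmb10 and Psmb8 of the immunoproteasome by 2.41 and 1.85 and Nlrc5, the class I transactivator and the counterpart of Ciita, by 2.18, from 6.09 to 31.1 FPKM. Between the genotypes 0 of the 13 were called in either state, where 6.71% and 5.05% of all genes were. Of the 7 tested class II members, 0 were called in control and 2 after costimulation. The class I medians were 0.045 and 0.082, and the class II medians were 0.43 and 0.29 (the plot of the lists). The difference between these lists was not tested.

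**Figure D4:**
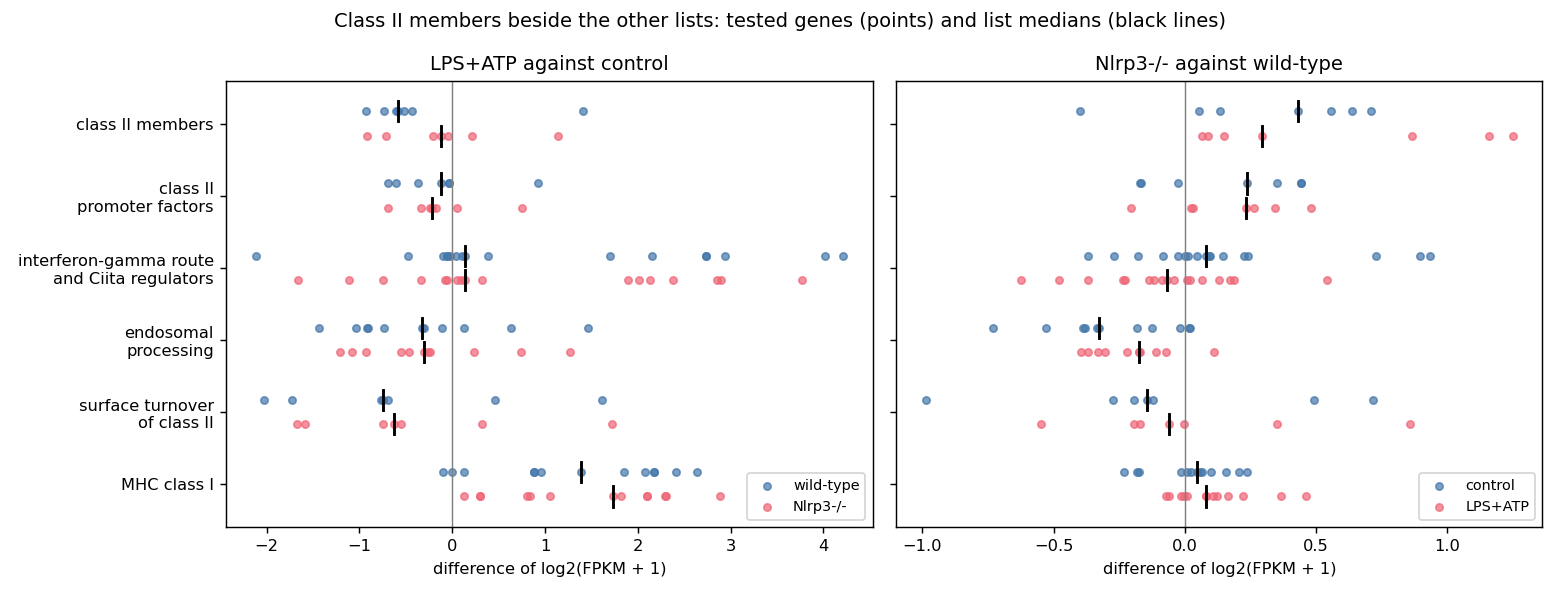
Differences of log2(FPKM + 1) for the tested genes of the class II members and 5 other lists, with costimulation (left) and between genotypes (right). Points are genes, colored by genotype (left) or by state (right), and black lines are list medians. The MHC class I median lies at 1.39 in wild-type and 1.73 in Nlrp3-/- BMDMs with costimulation, and the class II median at -0.59 and -0.12.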

How the data were processed

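Total RNA of 12 BMDM libraries in 4 groups of 3 was sequenced, and groups were taken from the genotype and treatment labels. The authors deposited gene-level FPKM for every library, with no counts, so the number of reads is unknown and a count model could not be fitted. The submitters' processing notes name GRCm39 and DESeq2 1.24.0 without a role. The aligner and annotation are not given in the sources used here. Of the 55335 identifiers, 55154 matched the GENCODE M21 annotation of GRCm38, which gave positions. All 12 columns were used and 0 were left out.

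Genes with at least 1 FPKM in at least 3 libraries were fitted as log2(FPKM + 1) with limma 3.58.1 in R 4.3.3, with 4 group means, a variance trend and Benjamini-Hochberg adjustment over 12622 genes. Calls needed an adjusted p under 0.05 and a log2 difference of at least 1. A difference on this scale understates the change of genes with low values. Ratios between members were tested by exact permutation of libraries within strata. Near copies were aligned with blastn 2.17.0+ and scripts were tested on simulated data. The members and lists were chosen with earlier results of these data known. Named were all 8 members and the genes of each other list called in any comparison (at most 6 a list, by size) with any that a count needed. The 5 genes most like the mean of the classical chains, and the 5 most like Ciita, were named too. Rfx5 and Ctss were named after their values were seen. Some listed genes are not reported here. Alternatives were a pseudocount of 0.1, other filters, TPM, median-ratio scaling, no trend, compared groups alone, no fold limit, a replicate block and leaving out each library.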

Additional observations from a re-analysis of the deposited data

Results flagged for a closer look

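The 3 class II genes named here changed with costimulation by different amounts in the 2 genotypes, as tested by the interaction term of the limma fit over 12622 genes. The change of Cd74 was higher in Nlrp3-/- than in wild-type BMDMs by 0.72635 on the log2 scale (adjusted p = 5.73e-06), with a fall in wild-type and a rise in Nlrp3-/- BMDMs. The change of H2-Aa was higher by 0.54296 (adjusted p = 0.000117), and that of H2-DMb1 by 0.48712 (adjusted p = 0.0121). By the adjusted p alone, 27.7% of all tested genes passed in this comparison, and with the fold limit 2.15% were called and 0 of the 7 tested members. Over all settings the value stayed between 0.69 and 0.76 for Cd74, between 0.51 and 0.68 for H2-Aa and between 0.41 and 0.55 for H2-DMb1.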

How the results depend on the processing

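The replicate numbers did not pair the libraries: same-numbered libraries of compared groups had deviations correlated at -0.0565 to 0.0528. With a replicate block the counts of called members did not change, whereas the 64 sign patterns of the blocked permutation test limit its p, and 6 ratio differences no longer passed: H2-Aa to H2-Ab1 with stimulation (-1.76, adjusted p = 0.0625) and genotype (0.72, adjusted p = 0.0833), H2-DMa to H2-DMb1 with stimulation (-0.71, adjusted p = 0.0833), H2-DMb2 to H2-DMb1 with stimulation (-0.96, adjusted p = 0.0625) and genotype (0.45, adjusted p = 0.0625), and Cd74 to H2-Ab1 with stimulation (-1.52, adjusted p = 0.0625). The sizes were the same as without the block.

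Without a fold limit the counts of members were 7 and 4 for stimulation in wild-type and Nlrp3-/- BMDMs, 5 and 4 for genotype in control and costimulated BMDMs, and 3 for the interaction. The shares of all genes were 76.4%, 74.3%, 47.8%, 48.5% and 27.7% in the same order. With a pseudocount of 0.1 the member counts were 3 and 3 for stimulation, where 29.3% and 22.6% of all genes were called. With TPM the count was 3 in wild-type BMDMs, where 22.8% of all genes were called. Each of these counts had H2-DMa and H2-DMb2 lower. Genotype after costimulation also had 3 with a pseudocount of 0.1 and with TPM, where 11.1% and 8.28% of all genes were called. Leaving out 1 library gave 1 to 2 for stimulation in either genotype, with 2 without wild-type control replicate 2 and without costimulated Nlrp3-/- replicate 1, and 2 to 3 for genotype after costimulation. It gave 0.33 to 0.56 for the genotype difference of H2-DMb2 to H2-DMb1, which did not pass without Nlrp3-/- control replicate 1 (0.40) or replicate 3 (0.46).

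Median-ratio scaling moved the median of all genes by 0.263 and 0.238 with stimulation and by -0.121 and -0.146 between genotypes, and left 1 member called for genotype after costimulation (Cd74 at 0.99). For stimulation of wild-type BMDMs the calls over all genes were then 1394 higher and 881 lower, beside 1041 and 1411. In Nlrp3-/- BMDMs they were 1081 and 609, beside 838 and 1036. It turned the sign of values that had not passed the test: stimulation in Nlrp3-/- BMDMs of H2-Aa (0.21; also 0.012 with TPM), H2-Eb1 (0.035) and H2-DMb1 (0.14), genotype in control BMDMs of H2-DMa (-0.071), genotype after costimulation of H2-DMa (-0.076) and H2-DMb1 (-0.076), and the interaction of H2-DMa (-0.0056). Leaving out 1 library turned values near 0, with ranges of -0.076 to 0.15 for H2-DMa between genotypes in control, -0.027 to 0.20 after costimulation and -0.084 to 0.15 in the interaction, and of -0.085 to 0.12 for H2-DMb2 in the interaction. The cause was not tested.

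For the member counts and ratio differences, 173 values under alternatives kept the direction and side of the threshold or, for counts, lay within 1.5 times the reported count, 11 counts lay outside that and 8 ratio differences no longer passed. The number of reads behind an FPKM is unknown, so no counting error is given, and Ciita did not pass the filter of the main test.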
